A study of Mus musculus with 18 samples.

Results

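The aquaporin genes are described here over RNA-seq libraries of mouse liver and of RAW264.7 cells, a mouse macrophage line. The 7 genes (Aqp1, Aqp3, Aqp4, Aqp7, Aqp8, Aqp9 and Aqp11) were taken by symbol from the 21441 genes of the expression tables, and the family was chosen by measured values, namely the fall of Aqp8 between control and LPS liver. The liver libraries came from male wild-type C57BL/6 mice in 3 treatments, with 3 libraries each from groups of 6 mice: vehicle (10% DMSO by gavage) and saline injection (control), an intraperitoneal injection of 10 mg/kg lipopolysaccharide, a component of the bacterial outer membrane (LPS), or 80 mg/kg moringa isothiocyanate-1, a plant compound, by gavage for 3 days before the same LPS injection (LPS+MIC-1). Livers were taken 16 h after the injection. The macrophage libraries carry the same 3 treatment names with 3 libraries each. Their labels repeat the mouse doses, and the series text gives 10 µM MIC-1 for both tissues. The treated macrophage columns are headed 10 µM, which is also the MIC-1 dose the paper states for the sequenced cells. The LPS dose and time of the sequenced cells are not given in the sources used here. No group received MIC-1 without LPS. Because the columns carry no replicate number, libraries are numbered 1 to 3 by column order within a treatment.

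Aquaporins are membrane channels that let water cross the lipid bilayer down an osmotic gradient. The aquaglyceroporins (Aqp3, Aqp7 and Aqp9) also pass glycerol, and in the liver Aqp9 is the main channel through which hepatocytes take up glycerol for glucose synthesis. Aqp8 lies in hepatocytes in the canalicular membrane, in vesicles beneath it and in mitochondria, and takes part in the water flow that accompanies bile secretion. Aqp1 is the water channel of red cells, many endothelia and bile duct cells. Aqp4 is best known from astrocytes, and Aqp11 lies in membranes inside the cell.

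All values are FPKM, fragments scaled by transcript length and library size, so they can be compared between genes of different length. Low FPKM values moved in steps of 1 read, and these steps gave the approximate depth, 4365000 to 17999000 reads per liver library, lowest in control libraries 2 and 3, and 17321000 to 22430000 reads per macrophage library. Defining hepatocyte transcripts such as albumin summed to at least 41675 FPKM in each liver library and to at most 14.8 FPKM in each macrophage library. The summed level of 8 LPS-response genes was 116 to 6140 FPKM in control liver and 47043 to 67809 FPKM in LPS liver. Most of it was Saa3 and Lcn2, at 4075 and 2037 FPKM in control library 2 but 52.9 and 35.5 FPKM in control library 3. In macrophages the sum was 323 to 614 FPKM in control, but 31886, 618 and 32494 FPKM in the LPS libraries. The library labelled LPS 2 thus lay at the level of the controls. Of the 8 genes, Cxcl10 went the other way, at 25.1, 71.6 and 25.7 FPKM in LPS and 64.3 to 70.1 FPKM in control. LPS library 2 was kept as labelled, and results that rest on it are also given without it. The study's own macrophage analysis used fewer LPS libraries than the labels list, and which one it left out is not given in the sources used here. In liver, library 2 of LPS and of LPS+MIC-1 stood apart from libraries 1 and 3 of its group. Control library 1 likewise stood apart from control libraries 2 and 3. Its squared differences from them, relative to sampling variance, were 64.3 and 83.7, against 6.68 between control libraries 2 and 3. Nothing in the sources ties a column to its own mouse or culture, so p-values measure the spread between these libraries, which may be partly technical.

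The upstream sequences below are those of the 3 genes whose liver levels were lower after LPS and of Aqp9, the gene tested in both tissues that differed most between treatments in macrophages. Each is the 250 bases before the transcription start of the mouse RefSeq annotation, 5′ to 3′ on the strand of the gene, and each was found once, without a mismatch, in the chromosome of build mm9, which the study also used. Capitals mark matches to the motifs searched.
Aqp8 (mm9 chr7:130605558-130605807, + strand): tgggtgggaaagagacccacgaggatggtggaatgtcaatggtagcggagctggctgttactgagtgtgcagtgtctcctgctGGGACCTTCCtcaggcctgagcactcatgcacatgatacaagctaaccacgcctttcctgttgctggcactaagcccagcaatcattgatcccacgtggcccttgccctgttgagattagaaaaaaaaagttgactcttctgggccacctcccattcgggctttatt
Aqp7 (mm9 chr4:40995170-40995419, - strand, one of the starts listed): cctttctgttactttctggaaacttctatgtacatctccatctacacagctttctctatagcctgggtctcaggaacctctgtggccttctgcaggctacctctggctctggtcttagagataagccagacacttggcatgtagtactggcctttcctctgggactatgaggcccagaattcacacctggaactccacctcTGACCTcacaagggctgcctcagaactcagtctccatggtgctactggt
Aqp3 (mm9 chr4:41045217-41045466, - strand): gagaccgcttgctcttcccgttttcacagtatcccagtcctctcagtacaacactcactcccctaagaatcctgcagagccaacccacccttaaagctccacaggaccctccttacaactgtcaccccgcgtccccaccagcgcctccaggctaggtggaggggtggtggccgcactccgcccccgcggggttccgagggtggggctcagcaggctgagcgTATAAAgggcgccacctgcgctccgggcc
Aqp9 (mm9 chr9:71011097-71011346, - strand, one of the starts listed): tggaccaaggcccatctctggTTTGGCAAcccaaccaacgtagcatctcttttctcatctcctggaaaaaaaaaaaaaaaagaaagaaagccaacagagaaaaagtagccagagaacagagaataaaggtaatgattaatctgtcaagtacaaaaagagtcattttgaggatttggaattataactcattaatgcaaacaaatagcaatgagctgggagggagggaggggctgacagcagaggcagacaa

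The motifs searched, on both strands, were the TATA box (TATAAA), the nuclear receptor half-site (AGGTCA), an insulin response sequence (TGTTTTG), C/EBP (TTGCNNAA), STAT (TTCNNNGAA), AP-1 (TGANTCA), the antioxidant response element (TGACNNNGC) and NF-kB. Each window held a single match, to a different motif. Aqp8 had an NF-kB match 167 bases before the start, and 7.01% of the 27025 windows of this length, 1 per gene outside chromosome 18, held such a match. Aqp7 had a nuclear receptor half-site on the opposite strand, whose match began 49 bases before the start (13.8% of windows). Aqp3 had a TATA box 29 bases before the start (13% of windows), and Aqp9 a C/EBP match 229 bases before it on the opposite strand (9.55% of windows). These are matches of letters, not binding sites, and no measurement here bears on factor binding.

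The genes lie on 5 chromosomes in mm9 (GENCODE vM1), and none of them overlaps another annotated gene. Aqp8 spans chr7:130605808-130611517 and Aqp11 chr7:104874889-104886757. Aqp9 spans chr9:70958466-71016489 and Aqp1 chr6:55286426-55298549. Aqp7 (chr4:40980107-40995172) and Aqp3 (chr4:41039755-41045216) are neighbours on the same strand, 44.6 kb apart, with no protein-coding gene between them. Aqp4 lies on chromosome 18.

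Control liver expressed 6 of the 7 genes. Ordered by mean, the levels were 31.6 ± 19.3 FPKM (SD, n = 3) for Aqp8, 25.4 ± 9.42 for Aqp7, 17.9 ± 7.12 for Aqp9, 9.10 ± 5.97 for Aqp11, 6.62 ± 1.05 for Aqp1 and 2.42 ± 0.647 for Aqp3. Neighbours in the order from Aqp8 to Aqp1 had overlapping ranges, whereas Aqp3 lay below the range of Aqp1. Aqp4 was listed at 0 in all 18 libraries. Of the 5 other aquaporin genes in the tables, Aqp6 and Aqp12 were listed at 0 throughout, and Aqp2 and Mip did not exceed 0.136 FPKM in any library.

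The comparison of LPS with control asked how liver changed in acute inflammation. The members were chosen with this contrast known, so their values are a description without a test. Aqp8, Aqp7 and Aqp3 were lower in every LPS library than in every control library, while Aqp1, Aqp9 and Aqp11 overlapped. With the thresholds used for all genes, 3 of the 6 members that passed the filter on low values (a mean above 1 FPKM over the 9 libraries) were lower in LPS and 0 were higher. Over all 10147 genes tested, 24.6% differed and 11.2% were lower. Ranges did not overlap for 45% of all genes. Nothing is read from the members' count here, and Aqp8 and Aqp3 passed the filter only through their control values. In whole tissue, a smaller number of expressing cells and less transcript per cell cannot be told apart.

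Aqp8 stood at 53.3, 16.6 and 24.9 FPKM in control libraries 1 to 3. In LPS libraries 1 and 3 it was listed at 0, and in LPS library 2 it reached 0.391 FPKM, which corresponds to about 6 reads. The LPS mean was 0.412% of the control mean. On the log2(FPKM + 0.5) scale the difference was -5.56 ± 0.64 (SE), and only 3 of the 10147 genes tested had a lower one. Because 2 of the libraries were at 0, the size of this difference depends on the constant of 0.5. It was -7.37 with 0.1 and -4.71 with 1.

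Aqp7 showed the same order of groups, with 14.6, 31.8 and 29.9 FPKM in control and 2.46, 7.06 and 0.992 FPKM in LPS. The LPS mean was 13.8% of control, and the log2 difference was -2.93 ± 0.64. Aqp3 was at 1.97, 3.16 and 2.13 FPKM in control and at 0.261, 0.862 and 0.237 FPKM, or 18.7% of control, in LPS, with a log2 difference of -1.65 ± 0.39. About 81 reads over the control libraries and 29 over the LPS libraries lay behind the Aqp3 values, so its levels are less certain than those of Aqp7 (1196 and 330 reads). In both genes LPS library 2 was the highest of its group, and without it the differences were -3.54 for Aqp7, -1.94 for Aqp3 and -5.84 for Aqp8. The pattern of Aqp3 and Aqp7 over the 9 liver libraries was much alike (Pearson r = 0.97 on the log2 scale, across libraries that share their treatments), and higher than the likeness of either to Aqp8 (0.77 and 0.76). Their flanking genes Nfx1 and Nol6 did not pass the thresholds between LPS and control (log2 differences of -0.41 ± 0.26 and 0.61 ± 0.30, adjusted p = 0.239 and 0.137, limma).

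**Figure D1:**
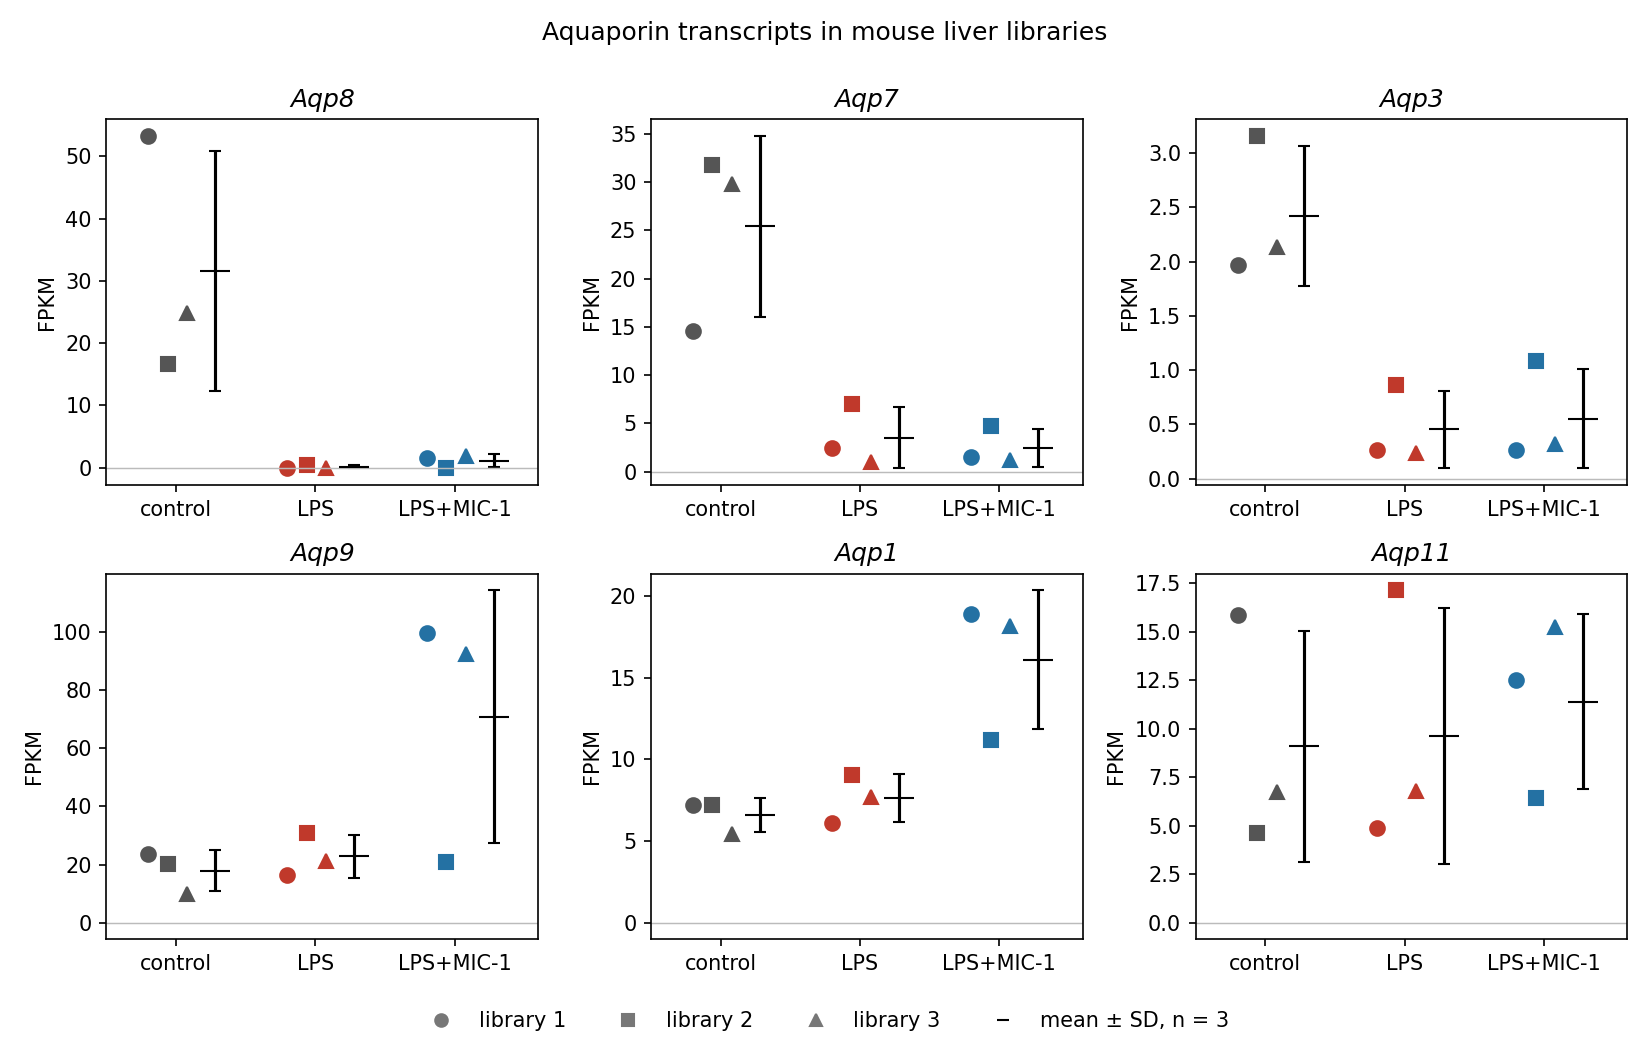
FPKM of 6 aquaporin genes in each liver library (y axis, linear; 1 panel per gene) by group (x axis), with symbols for library numbers and a bar for the mean ± SD of 3 libraries. Aqp8, Aqp7 and Aqp3 are lower in all LPS and LPS+MIC-1 libraries than in all controls, and Aqp9 is highest in LPS+MIC-1 libraries 1 and 3.

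The other members overlapped the control range after LPS. Aqp9 was 23.6, 20.3 and 9.94 FPKM in control and 16.5, 30.9 and 21.1 FPKM in LPS. Aqp1 was 7.23, 7.21 and 5.41 FPKM in control and 6.12, 9.08 and 7.68 FPKM in LPS. Aqp11 varied more within groups than between them, with 15.9, 4.65 and 6.76 FPKM in control and 4.90, 17.2 and 6.78 FPKM in LPS. The log2 differences were 0.38 ± 0.60, 0.19 ± 0.25 and 0.06 ± 0.56, beside a median of 0.15 over all genes. Rescaling each library to the same FPKM sum moved that median to -0.18 and the difference of Aqp1 to -0.16.

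The make-up of the aquaporin transcripts differed accordingly. Aqp8, Aqp7 and Aqp3 together held 60.0% to 72.0% of the members' summed FPKM in control libraries, 3.34% to 12.7% in LPS libraries and 2.49% to 13.2% in LPS+MIC-1 libraries. Aqp9 held 12.6% to 24.3% in control, 47.3% to 57.4% in LPS and 47.0% to 74.1% in LPS+MIC-1. The sum itself was 79.0 to 117 FPKM in control, 30.2 to 65.5 FPKM in LPS and 44.3 to 134 FPKM in LPS+MIC-1.

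**Figure D2:**
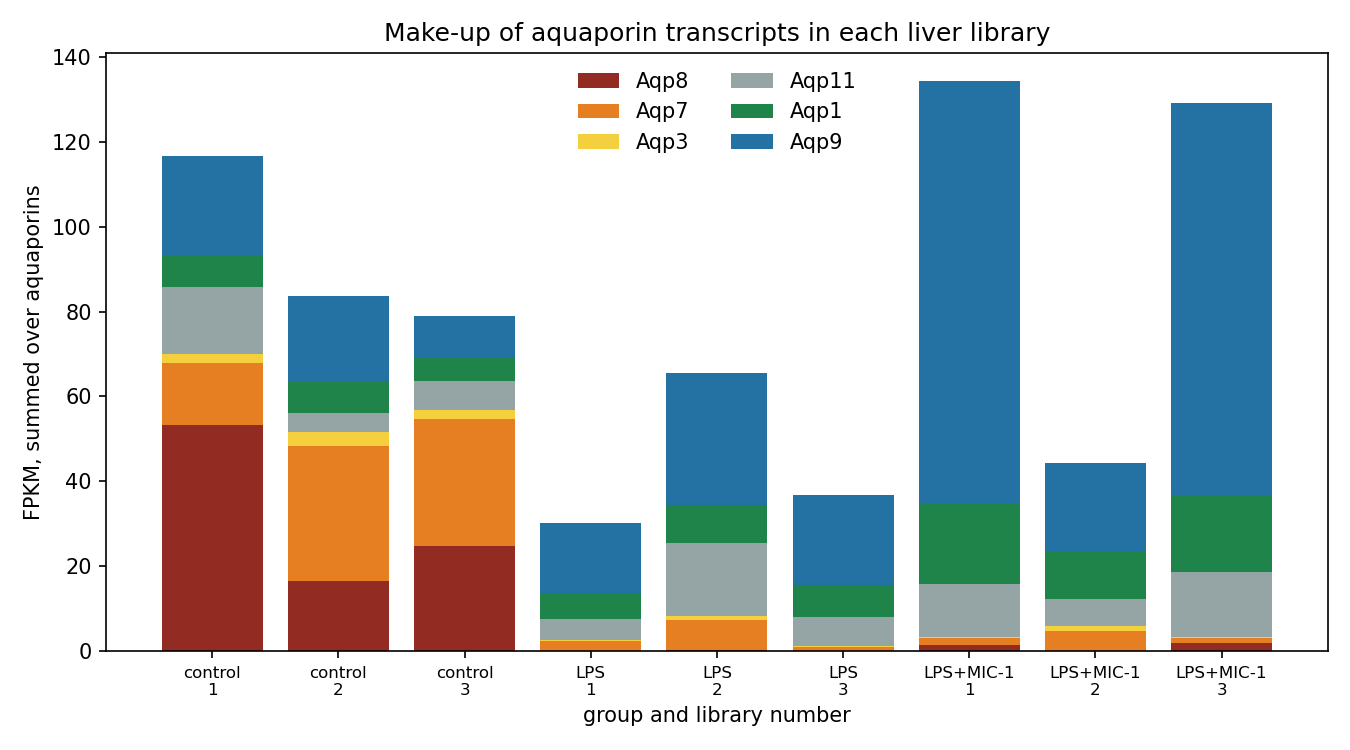
FPKM summed over the expressed aquaporins in each of the 9 liver libraries (y axis, linear from 0), stacked by gene. Aqp8 and Aqp7 fill much of each control bar, and Aqp9 is the largest block of each LPS and LPS+MIC-1 bar.

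The comparison of LPS+MIC-1 with LPS asked whether the compound altered the response to LPS. It shares the LPS libraries with the contrast by which the members were chosen. By limma, 0 of the 10147 genes and none of the 6 members passed the adjusted threshold (0%). At an unadjusted p below 0.05 there were 364 genes (3.59%), among them Aqp1. Without LPS library 2, 35 genes were called, no member among them. Aqp8, Aqp7 and Aqp3 did not return to the control range in any LPS+MIC-1 library.

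Aqp1 was 18.9, 11.2 and 18.2 FPKM in LPS+MIC-1 against 6.12, 9.08 and 7.68 FPKM in LPS. All 3 treated libraries lay above the LPS libraries. Ranges did not overlap for 9.75% of all genes, and 5.1% were higher in this way. The log2 difference was 1.01 ± 0.25, with an unadjusted p of 0.00316 and an adjusted p of 0.997 (limma).

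Aqp9 was at 99.4 and 92.2 FPKM in LPS+MIC-1 libraries 1 and 3, but library 2 stood at 20.8 FPKM, inside the LPS range of 16.5 to 30.9 FPKM. The difference was 1.37 ± 0.60 on the log2 scale (adjusted p = 0.997), and 2.09 ± 0.40 without library 2 (adjusted p = 0.246, limma). Aqp1 and Aqp9 had much the same pattern over the 9 liver libraries (Pearson r = 0.94). Both were higher in LPS+MIC-1 libraries 1 and 3 than in library 2. Other measures split these libraries too. The sum of 7 hepatocyte markers was 55136, 41705 and 57107 FPKM in LPS+MIC-1 libraries 1 to 3, against 46788 to 50068 FPKM in LPS. Of these, Cps1 was 267, 57.1 and 268 FPKM against 71.8, 82.2 and 67.5 FPKM in LPS. Only Apoa1 was higher in library 2 than in libraries 1 and 3 (11911, 14095 and 12458 FPKM). The sum of 5 erythroid markers, cells in which Aqp1 is known, was 719, 999 and 725 FPKM against 746 to 1085 FPKM. The summed level of 6 Kupffer cell markers was 92.9, 50.9 and 96.1 FPKM in LPS+MIC-1 libraries 1 to 3, against 38.5 to 55.1 FPKM in LPS. Marco, a scavenger receptor, carried most of that sum, with 74.2, 38.4 and 75.6 FPKM in LPS+MIC-1 and 23.1, 40.4 and 31.3 FPKM in LPS. Of the other Kupffer markers, Cd5l was higher in libraries 1 and 3 as well (11.7, 5.14 and 13.5 FPKM), whereas Clec4f stood at 4.44, 4.83 and 4.33 FPKM, and Emr1 was at 0 in all LPS+MIC-1 libraries. In these libraries Vsig4 was 1.09, 0.647 and 1.72 FPKM and Timd4 1.48, 1.88 and 0.942 FPKM. The sum of 6 neutrophil markers was 189, 453 and 203 FPKM against 349 to 440 FPKM. The sum of 7 endothelial markers, cells in which Aqp1 is known, was 47.9 to 54.2 FPKM against 35.8 to 49.8 FPKM, but its members differed. Clec4g was 15.9, 2.06 and 14.8 FPKM in LPS+MIC-1 against 1.28, 7.04 and 0.824 FPKM in LPS, and so was higher in libraries 1 and 3 as Aqp1 and Aqp9 were. Kdr was 3.59, 1.65 and 3.07 FPKM against 0.709, 1.71 and 0.649 FPKM, and Lyve1 went the other way (16.3, 30.9 and 14.4 FPKM in LPS+MIC-1). Oit3 (6.87, 3.91 and 7.37 FPKM) and Pecam1 (2.38, 0.614 and 1.53 FPKM) were higher in LPS+MIC-1 libraries 1 and 3. Stab2 (4.57, 4.49 and 4.27 FPKM) and Cdh5 (4.62, 4.23 and 4.52 FPKM) hardly differed between them. The sum of 7 bile duct markers was 75.9 to 90.4 FPKM against 101 to 105 FPKM. Most of it was Spp1, which stood at 14436 to 33024 FPKM in the macrophage libraries and so is not particular to bile duct cells. Krt19, a keratin of these cells, was 4.47, 0.333 and 3.66 FPKM against 0.242, 0.209 and 0.154 FPKM. Krt7 (1.10, 1.49 and 1.37 against 0.870, 1.62 and 0.176 FPKM) did not split in this way. Nor did Epcam (1.09, 1.26 and 0.653 against 1.03, 1.09 and 1.17 FPKM). Sox9 was highest in library 2 (18.4, 24.6 and 15.5 against 28.7, 13.7 and 20.4 FPKM). These markers were named after their values were seen. Their part in the levels of Aqp1 and Aqp9 was not tested.

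Aqp8 was listed at 0 in LPS+MIC-1 library 2 and at 1.56 and 1.87 FPKM, about 30 and 34 reads, in libraries 1 and 3. The groups overlapped, and the log2 difference from LPS was 1.15 ± 0.64 (adjusted p = 0.997, limma). The LPS+MIC-1 mean was 3.62% of the control mean. Aqp7 was at 1.52, 4.75 and 1.17 FPKM and Aqp3 at 0.259, 1.08 and 0.319 FPKM, each with library 2 the highest, as in LPS. Their differences from LPS were -0.30 ± 0.64 and 0.12 ± 0.39. Aqp11 was at 12.5, 6.44 and 15.3 FPKM and overlapped both other groups.

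LPS+MIC-1 liver was also set against control. This contrast shares the control libraries with the one used to choose the members, so that a member high in control was bound to count here too. Aqp8 and Aqp3, moreover, passed the filter only through their control values. The log2 differences of Aqp8 (-4.41 ± 0.64), Aqp7 (-3.23 ± 0.64) and Aqp3 (-1.53 ± 0.39) are therefore a description. Over all genes, 25.2% passed the thresholds and 11.5% were lower. Aqp1 was higher, by 1.2 ± 0.25 on the log2 scale or 2.44 times the control mean (adjusted p = 0.00848, limma), and its 3 treated libraries lay above all controls, as was so for 30.5% of all genes. After rescaling to the same FPKM sum the difference of Aqp1 was 0.58 and no longer passed (adjusted p = 0.0749), while the median of all genes moved from 0.15 to -0.43 and the share of higher genes among those called from 54.5% to 17.2%. The call of Aqp1 was also lost when the 2 most alike libraries of each group were averaged (adjusted p = 0.138). Aqp9 missed the threshold (1.75 ± 0.60, adjusted p = 0.0501) and passed it without LPS+MIC-1 library 2 (2.47 ± 0.40, adjusted p = 0.0071). Libraries 1 and 3, which remain, were much alike. Their squared difference was 2.78 times the sampling variance, against 48.4 and 48.6 from library 2. The p-value without library 2 may therefore be too small. After rescaling to the same FPKM sum the difference of Aqp9 was 1.11 ± 0.56 (adjusted p = 0.141). With no filter on low values its adjusted p was 0.0741, and with a constant of 1 it was 0.0489. Aqp11 differed by 0.40 ± 0.56 (adjusted p = 0.591).

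**Figure D3:**
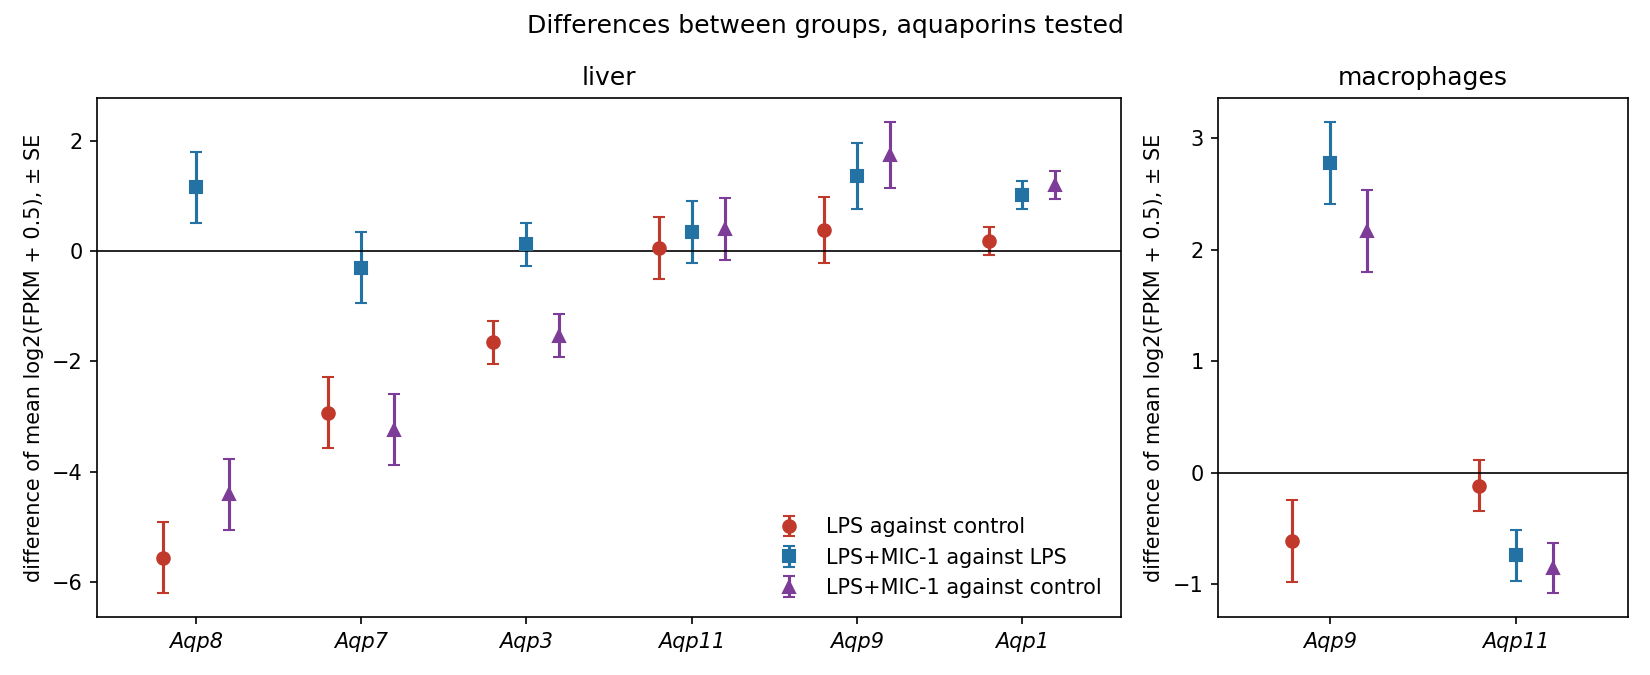
Differences between group means of log2(FPKM + 0.5) with their standard errors (y axes, which differ in range) for the aquaporins tested in liver (left) and macrophages (right), with a symbol for each comparison. In liver the differences of LPS from control run from -5.56 for Aqp8 to 0.38 for Aqp9, and in macrophages Aqp9 lies at 2.78 between LPS+MIC-1 and LPS.

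The nearest patterns to that of Aqp8 over the 9 liver libraries, among all other tested genes, were those of Lhpp (Pearson r = 0.995), Acss2, which makes acetyl-CoA from acetate (0.993), D630039A03Rik (0.990), Abcc2, the canalicular pump for conjugated bilirubin (0.987), and Insig1, a sterol-responsive regulator of cholesterol synthesis (0.985). These correlations follow largely from the step between control and the other groups. All 5 genes had higher values in LPS+MIC-1 libraries 1 and 3 than in library 2, as Aqp8 did. They were picked for likeness over these same libraries, so this is no separate result. Acss2, for example, was at 109, 72.4 and 82.9 FPKM in control, 5.25, 11.9 and 5.74 FPKM in LPS, and 16.5, 7.32 and 17.8 FPKM in LPS+MIC-1. The nearest patterns to Aqp7 were those of Zufsp, D730040F13Rik and Zfp488 (0.997, 0.996 and 0.995), those to Aqp3 of Leprel2, Epha10 and LOC100272221 (0.99, 0.99 and 0.98), and those to Aqp1 of Mpnd, Parva and 9330129D05Rik (0.97 each). For Aqp9 they were Tbc1d16, Lypla1 and Inf2 (0.96, 0.96 and 0.95), and for Aqp11 Neu2, Raet1d and Mapre2 (0.98, 0.98 and 0.97).

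**Figure D4:**
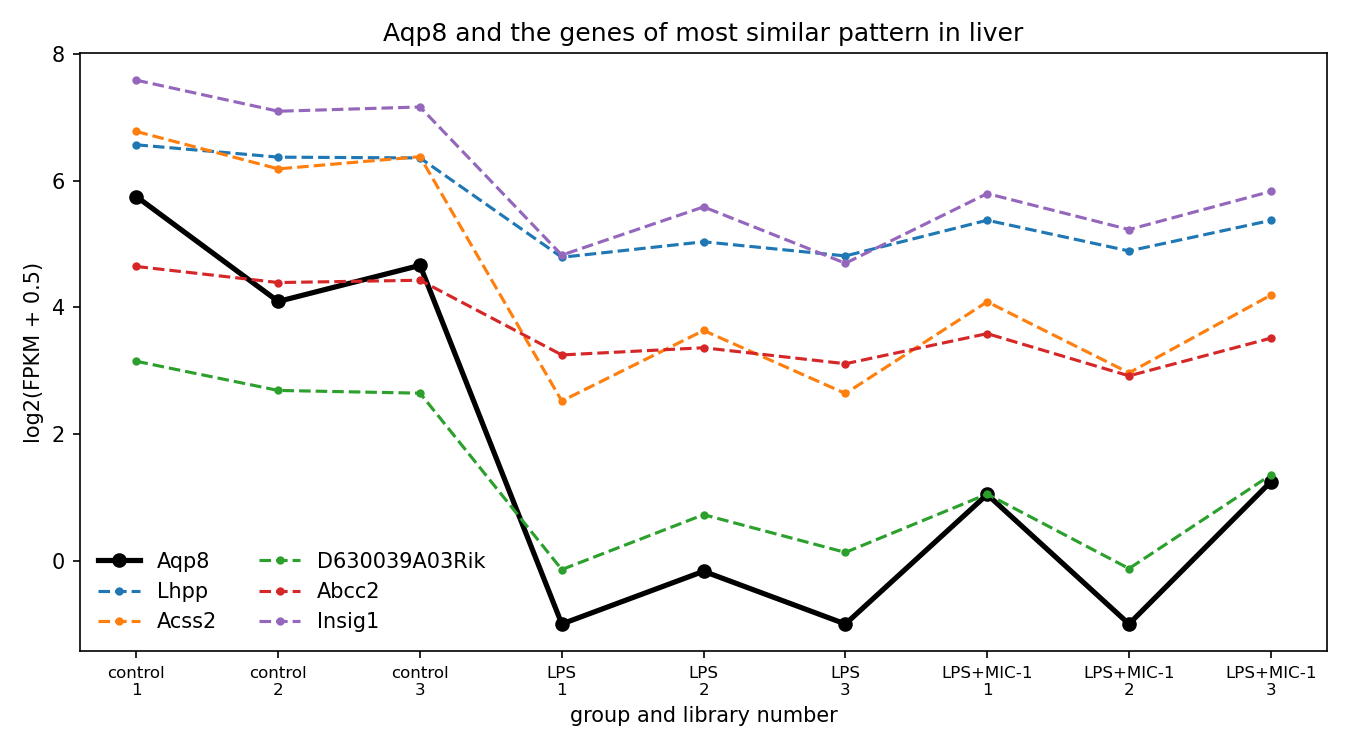
log2(FPKM + 0.5) of Aqp8 (thick black line) and of the 5 genes most like it in pattern (dashed lines) in each of the 9 liver libraries (x axis). Lines join libraries only to guide the eye. All 6 genes step down from control to LPS, and all are higher in LPS+MIC-1 libraries 1 and 3 than in library 2. The 5 genes were picked for likeness over these same libraries.

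Aqp8 is tied to bile flow, so a list of hepatocyte transporters was examined in liver. It holds canalicular exporters, which share a membrane with Aqp8, and sinusoidal carriers such as Slco1b2, Slco1a1 and Slc10a1, which face the blood. Between LPS and control, 5 of the 9 tested transporters were lower, beside 11.2% of all genes, and 0 were higher, and their median log2 difference was -1.38, beside 0.15 over all genes. Abcb11, the bile salt export pump, was 93.0, 120 and 136 FPKM in control and 6.89, 28.6 and 7.58 FPKM in LPS (log2 difference of -3.26 ± 0.52, adjusted p = 0.00415, limma). Slco1b2, which takes up organic anions from blood, fell by 3.09 on the log2 scale (adjusted p = 0.0201). It was 10.3, 88.0 and 8.80 FPKM in the LPS libraries, so that library 2 again kept more. Slco1a1, another organic anion carrier, differed by -2.11 (adjusted p = 0.000496), Abcg5, a subunit of the sterol exporter, by -1.90 (0.0225), and Abcc2 by -1.25 (0.00506). The remaining 4 did not pass. Slc10a1, the sodium-dependent bile salt carrier, differed by -1.38 ± 0.49 (adjusted p = 0.0579, limma). Abcb4 differed by -0.83 ± 0.22 (0.0213), which is under the minimum difference of 1. Abcg8 and Atp8b1 pointed upwards, by 1.60 ± 0.81 (0.149) and 0.43 ± 0.25 (0.199). Between LPS+MIC-1 and LPS 0 of the 9 passed, with a median of 0.10, and between LPS+MIC-1 and control 4 were lower, beside 11.5% of all genes, and 0 higher.

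Genes that handle glycerol were examined because Aqp3, Aqp7 and Aqp9 pass it. Of 13 tested in liver, 2 were higher and 2 lower between LPS and control, where 24.6% of all genes were called, so the list's count lay near the background. Its median log2 difference was -0.28. Fbp1, of glucose synthesis, rose from 176, 133 and 66.2 FPKM to 1157, 265.0 and 1423 FPKM (2.71 ± 0.62, adjusted p = 0.0135, limma), and Tpi1, which interconverts triose phosphates, rose by 2.33 ± 0.39 (0.00499). G6pc, which releases free glucose, differed by -2.67 ± 0.45 (0.00521), and Mgll, which frees glycerol from monoglycerides, by -1.26 ± 0.39 (0.0357). Gyk, the kinase that traps glycerol in the cell, was 13.1 to 24.0 FPKM in control, 14.7 to 17.5 FPKM in LPS and 11.7 to 21.8 FPKM in LPS+MIC-1, with overlapping ranges. Between LPS+MIC-1 and LPS 0 of the 13 passed, and between LPS+MIC-1 and control 2 were higher and 3 lower, beside 25.2% of all genes called. Adipoq, Lep and Retn, defining markers of adipocytes, in which Aqp7 is abundant, were at 0 in all liver libraries, control included, although the 6 adipocyte markers together summed to 5.91 to 26.1 FPKM in control, 157 to 220 FPKM in LPS and 155 to 193 FPKM in LPS+MIC-1. Nearly all of that sum was Fabp4, which is not particular to adipocytes and stood at 17.6 to 232 FPKM in the macrophage libraries, whereas neither Plin1 nor Cfd exceeded 0.187 FPKM in any liver library.

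The macrophage table was not used to choose the members, and 2 of the 7, Aqp9 and Aqp11, passed the filter on low values there. Aqp9 did so only through its LPS+MIC-1 libraries, so no count of members is read here, and its tests are also given without the filter. Aqp9 was higher with LPS+MIC-1 than in either other group, with 4.88, 6.49 and 3.71 FPKM against 0.375, 0 and 0.623 FPKM in LPS and 0.383, 1.15 and 0.699 FPKM in control. The lowest LPS+MIC-1 library lay above the highest library of either group, a separation found upwards in 17.9% of all genes against LPS and in 31.4% against control. About 756 reads over the LPS+MIC-1 libraries, 38 over the LPS libraries and 134 over the controls lay behind these values. The 0 in LPS library 2 is 1 of 17 tested genes at 0 in that library alone, while control library 2, which it otherwise resembled (r = 0.99 over genes), had about 67 reads of Aqp9.

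The log2 difference of Aqp9 between LPS+MIC-1 and LPS was 2.78 ± 0.37 (adjusted p = 0.00306, limma), past the threshold of 0.01 used for macrophages, beside 3.87% of the 9905 genes tested and 2.06% called higher. Without LPS library 2 it was 2.45 ± 0.31 (adjusted p = 0.000261). Between LPS+MIC-1 and control it was 2.17 ± 0.37 (adjusted p = 0.00588), beside 5.59% of all genes, 3.27% higher, and a mean 6.75 times that of control. With no filter on low values the adjusted p was 0.0044 against LPS and 0.00893 against control, and both calls held. Both stood near the threshold. The call against LPS was lost without LPS library 1 (adjusted p = 0.0124) and without LPS+MIC-1 library 1 (0.0186), 2 (0.0136) or 3 (0.0125), with log2 differences of 2.59 to 2.96. It was also lost when the 2 most alike libraries of each group were averaged (3.03 ± 0.49, adjusted p = 0.125). The call against control was lost without any single control library (0.0127 to 0.0314), without LPS library 1 (0.0104) and without any single LPS+MIC-1 library (0.0197 to 0.0299). Exact two-sided permutation of 3 against 3 libraries cannot go below 0.1.

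**Figure D5:**
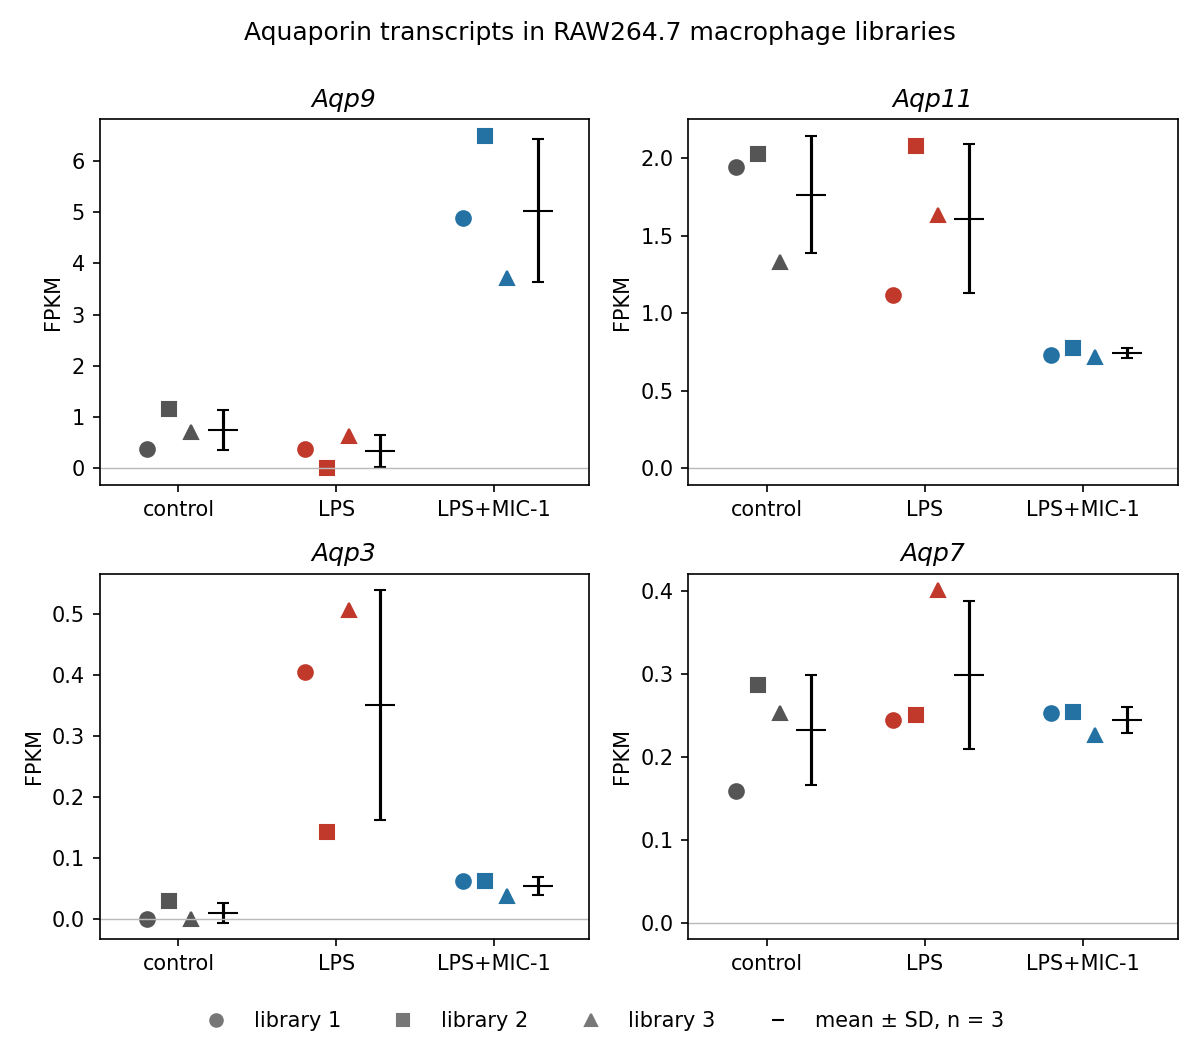
FPKM of 4 aquaporin genes in each macrophage library (y axis, linear; 1 panel per gene, ranges differ) by group, with symbols for library numbers and a bar for the mean ± SD of 3 libraries. The 3 LPS+MIC-1 libraries lie above all others for Aqp9 and below all others for Aqp11, and Aqp3 reads were found mainly in the LPS libraries.

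Between LPS and control, Aqp9 differed by -0.61 ± 0.37 and Aqp11 by -0.11 ± 0.23, and neither passed (adjusted p = 0.202 and 0.692, limma). With all 9 libraries this contrast called 0 of the 9905 genes (0%), although 4928 (49.8%) had an unadjusted p below 0.05, and without LPS library 2 it called 3386. The differences without that library were -0.28 ± 0.31 for Aqp9 (adjusted p = 0.429) and -0.27 ± 0.20 for Aqp11 (0.249), so that both members stayed uncalled.

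Aqp11 was lowest with LPS+MIC-1, at 0.732, 0.777 and 0.718 FPKM, against 1.12, 2.08 and 1.63 FPKM in LPS and 1.94, 2.03 and 1.33 FPKM in control. The 3 treated libraries were close together and lay below all others. Of all genes, 18.2% lay below LPS in this way and 34.9% below control, so separation alone was common. The log2 differences were -0.74 ± 0.23 from LPS (adjusted p = 0.052) and -0.85 ± 0.23 from control (0.0301), neither past 0.01. Without LPS library 2 the difference from control had an adjusted p of 0.00424 with the same size, which is under the minimum difference of 1. The values rest on 14 to 18 reads per LPS+MIC-1 library.

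The remaining members were near the detection limit in macrophages. Aqp3 had 0, 1 and 0 reads in control, 9, 5 and 12 in LPS and 2, 2 and 1 in LPS+MIC-1, or 0 to 0.0282, 0.142 to 0.507 and 0.0371 to 0.0624 FPKM. Every LPS library had more than every other library. LPS library 2 did so too, with 5 reads, although its LPS-response genes lay at the level of the controls. How often all genes separated in this way between LPS and control was not counted, so nothing is read from the separation. The exact two-sided permutation p of LPS against control was 0.1, the smallest this design allows. At 0 or 1 read in the controls a fold change would have no firm meaning. Aqp7 was 0.158 to 0.401 FPKM in the 9 libraries, and its groups overlapped. Aqp8 had at most 1 read in any library, Aqp1 had 2 reads in LPS library 2 alone, and 3 reads would correspond to 0.0505 to 0.0878 FPKM of Aqp1. Such levels could not be distinguished from absence at this depth, and the same holds for Aqp4.

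Among glycerol genes, 7 were tested in macrophages. None passed between LPS and control, where the largest differences were those of Gpd2 (0.80 ± 0.35, adjusted p = 0.1), Gpd1l (-0.73 ± 0.26, 0.0777) and Lipe (-0.69 ± 0.24, 0.0777). Gpd2, the mitochondrial glycerol-3-phosphate dehydrogenase, was 22.1, 7.96 and 21.8 FPKM in the LPS libraries and 8.07 to 9.32 FPKM in control, so LPS library 2 again matched the controls. Between LPS+MIC-1 and LPS 1 of the 7 was higher and 0 lower, beside 3.87% of all genes called and 2.06% called higher. That gene was Gyk, named after its values were seen, which acts on glycerol once it has entered through channels such as Aqp9. It was 96.7, 64.5 and 99.5 FPKM in LPS+MIC-1, 28.6, 27.9 and 32.0 FPKM in LPS and 29.8, 28.7 and 29.7 FPKM in control. The log2 differences were 1.52 ± 0.17 from LPS (adjusted p = 0.00145, limma) and 1.52 ± 0.17 from control (0.0012). With the most alike libraries of each group averaged, no gene passed in either comparison, so both calls of Gyk were lost. Aqp9 and Gyk were thus both higher with LPS+MIC-1, although in library 2 Aqp9 was highest and Gyk lowest of the treated libraries. Of the bile transporters 2 were tested in macrophages, and 0 passed in any comparison.

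The patterns most like that of Aqp9 over the 9 macrophage libraries were those of Slc7a7, an amino acid transporter subunit (Pearson r = 0.97), Ift20 (0.97) and Snx30 (0.96). Slc7a7 was 2.62, 4.20 and 2.93 FPKM in LPS+MIC-1, 0.745, 0.213 and 0.826 FPKM in LPS and 0.469, 0.995 and 0.420 FPKM in control. For Aqp11 they were Chrm4, Adap1 and Cnpy2 (0.96 each). These libraries share their treatments, so the correlations describe order only.

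Set side by side, the tables differ in which aquaporins they hold. Liver held Aqp8, Aqp7, Aqp9, Aqp11, Aqp1 and Aqp3. Macrophages held low levels of Aqp9 and Aqp11, with Aqp7 and Aqp3 near the detection limit. The tables were normalised separately, so levels across them are approximate. Aqp9 in macrophages treated with LPS+MIC-1 (5.03 ± 1.40 FPKM) lay below all liver libraries. In each tissue the highest Aqp9 values were those of LPS+MIC-1 libraries, 3 of 3 in macrophages and 2 of 3 in liver. One other family member, Aqp5, had 5, 1 and 12 reads in LPS+MIC-1 liver (0.249, 0.0592 and 0.629 FPKM) against 1 read in all LPS libraries and 0 in control, too few for a test.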

How the data were processed

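RNA of 18 samples was sequenced at BGI. The authors pseudoaligned the reads with kallisto 0.45.0 to RefSeq transcripts of mm9 and used tximport for gene sums. The deposited values are FPKM that the authors computed in DESeq2 1.20.0 with its size factors, in 1 table per tissue. The 6 deposited DESeq2 comparison tables hold the authors' fold changes and p-values and were not used.

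The study describes its macrophage analysis with 2 LPS replicates, whereas all 3 labelled LPS libraries were used here. Columns were matched to groups by name. No column was left unmatched. Each table was tested alone with limma 3.58.1 (R 4.3.3; lmFit, contrasts.fit, eBayes with trend) on log2(FPKM + 0.5), with all 3 groups in 1 fit, over genes with a mean FPKM above 1. A gene was called at a Benjamini-Hochberg adjusted p below 0.05 in liver or 0.01 in macrophages and an absolute log2 difference above 1, so that differences are on the log2(FPKM + 0.5) scale, which understates changes of low genes. Exact permutation tests were two-sided. The fit was tested on simulated data. Reads per library and gene were estimated from the steps between low FPKM values, where 82.6% to 89.7% of low values lay within 0.15 of a whole read. Intervals and floors at 3 reads cover counting error only. Libraries of 1 group differed by more than sampling noise and were counted separately. In each group 2 of them were much more alike than either was to the remaining one. If these are not independent, standard errors and p-values are too small.

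The members, lists and comparisons were chosen with earlier results of these data known. Genes named are the members, the other aquaporins, the 4 tested genes of the glycerol and of the bile transport list with the largest difference between LPS and control in liver (3 of the glycerol list in macrophages), and the 3 genes most like each member by Pearson r (5 for Aqp8 in liver). Abcc2, Slc10a1, Abcb4, Abcg8, Atp8b1, Gyk (and the flanking genes) were named after their values were seen. Upstream sequences are from RefSeq (GRCm38.p6), located in the mm9 genome by exact match. Chromosome 18, which holds Aqp4, was left out of the motif search, so 6 members were matched and the background windows lack its genes. Alternatives changed the constant, filter, scaling, groups in the fit, minimum difference, trend and libraries left out. Averaging the 2 most alike libraries of each group was added after seeing the data.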

Additional observations from a re-analysis of the deposited data

Results flagged for a closer look

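Aqp3 values were ordered in opposite directions in the tissues, on few reads in macrophages, and the difference between tissues was not tested. Between LPS and control every liver library was lower, at 18.7% of the control mean, whereas every macrophage library was higher, with 5 to 12 reads against 0 or 1. The library with 5 reads was LPS library 2, whose LPS-response genes lay at the level of the controls. Between LPS+MIC-1 and control every liver library was lower as well, at 22.8% of the control mean, whereas the macrophage libraries had 1 or 2 reads each against 0 or 1, which is at or under 3 reads in both groups. Groups of 3 libraries were too small for a search for single outlying values.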

How the results depend on the processing

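No paired analysis was possible because the columns of the tables carry no replicate number. Averaging the 2 most alike libraries of each group, chosen after seeing the data, left 1 member called in liver for LPS and 1 for LPS+MIC-1 against control, and 0 in macrophages in both comparisons with LPS+MIC-1, with fewer samples in the fit. In macrophages a constant of 0.1 left 0 members called for LPS+MIC-1 against LPS and 0 against control, and a fit of only LPS and LPS+MIC-1 left 0 (Aqp9 adjusted p = 0.0101, 0.0332 and 0.0204). Leaving out single libraries gave 0 to 1 member in macrophages against LPS (109 to 2310 of all genes) and against control (141 to 1560). In liver it gave 2 to 3 members for LPS against control (1227 to 3510 of 10147 genes). For LPS+MIC-1 against control in liver it gave 3 to 5 (1749 to 3111). The members were chosen by the first liver contrast, and the second shares its controls, so nothing is read from these counts. The member counts include members that passed the filter only through the group where they were high. Some log2 differences changed sign. In liver between LPS+MIC-1 and LPS, Aqp3 was -0.00425 after rescaling to equal sums, and ranged from -0.21 to 0.41 with single libraries left out (below 0 without LPS library 1 or 3 or LPS+MIC-1 library 2). Aqp7 ranged from -0.86 to 0.31 (above 0 without LPS library 2 or LPS+MIC-1 library 3), and Aqp11 from -0.011 to 0.84 (below 0 without LPS library 1), and was -0.082 with averaged libraries. Between LPS and control in liver, Aqp11 was 0.06, but -0.28 with equal sums, -0.024 with the median of ratios, and -0.44 to 0.53 with single libraries left out (below 0 without control library 2 or 3 or LPS library 2). For LPS+MIC-1 against control, Aqp11 was -0.21 with equal sums and -0.013 with averaged libraries. In macrophages Aqp11 ranged from -0.27 to 0.065 for LPS against control (above 0 without LPS library 1). The cause was not tested.

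Over all genes, the count for LPS against control in liver was 2493 and ranged from 1227 to 3510 with single libraries left out, and was 151 with averaged libraries, where the count for LPS+MIC-1 against control was 160 in place of 2560. The share called higher for LPS against control was 54.4%, 30.1% with equal sums and 70.2% with averaged libraries. Between LPS+MIC-1 and LPS in liver, other settings called 0, 1 or 2 genes, and 35 without LPS library 2. In macrophages the counts were 383 against LPS (109 to 2310 with single libraries left out, 5 in the fit of 2 groups, 617 with no minimum difference, 0 with averaged libraries) and 554 against control (141 to 1560, 1541, 866 and 0). Equal sums moved the macrophage median for LPS+MIC-1 against LPS from -0.0077 to 0.44, and the share called higher from 53.3% to 86.0%. The median for LPS against control in macrophages moved from -0.025 to -0.65. Depth limits Aqp3 and Aqp8 after LPS in liver, and all members but Aqp9 and Aqp11 in macrophages.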
